A study of Homo sapiens with 17 samples.

Results

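The genes described here hold cells at, or let them through, the G1 restriction point: the CDK inhibitors CDKN1A, CDKN1B, CDKN1C, CDKN2C and CDKN2D, the D cyclins CCND1, CCND2 and CCND3, and the kinases CDK4 and CDK6. They were taken by gene symbol, by a rule with no measured value in it, although earlier results of these data were known when the set was drawn up. Of the 10 genes named, 9 had a probe set annotated to that gene alone, among 19775 genes measured in this way. CDKN2C was not analysed here, because no probe set is annotated to it alone in the table used. The 9 genes have 25 such probe sets. Each gene is represented by its probe set with the highest mean over the arrays, and the 16 others served as a check. CDKN1A, CDKN1B and CDK4 have 1 probe set each.

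All samples are L363, an established human multiple myeloma cell line, kept in culture for 48 hours. The 6 groups are MS275 at 0.5 uM, rapamycin at 1 nM, rapamycin at 10 nM, 1 nM rapamycin with MS275, 10 nM rapamycin with MS275, and an untreated control. MS275 (MS-275) inhibits class I histone deacetylases and rapamycin inhibits the kinase mTOR. Each group has 3 arrays apart from 10 nM rapamycin with MS275, which has 2 because the submitters removed 1 array at quality control. Nothing in the labels says that replicates are separate cultures, so p-values measure only the spread between these arrays, which may be technical. A single line stands for the disease here, and no protein was measured.

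D cyclins bind and activate CDK4 and CDK6, and the resulting kinases phosphorylate RB proteins, which frees E2F transcription factors to switch on genes of DNA replication. CDKN2C (p18) and CDKN2D (p19) belong to the INK4 family and bind CDK4 and CDK6 themselves, while CDKN1A (p21), CDKN1B (p27) and CDKN1C (p57) belong to the Cip/Kip family and bind complexes of cyclins with CDKs, CDK2 among them. Myelomas commonly express at least one D cyclin at a raised level. CDKN1A is a well known gene induced by histone deacetylase inhibitors, an effect described through GC boxes, the binding sites of SP1 and SP3, close to its start.

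The letters just before the start are shown for those genes past the threshold with MS275 that have an entry in the promoter table. Each is the 250 bases before the start in RefSeq's GRCh38.p14, written 5′ to 3′ on the gene's own strand. Capitals mark GC boxes (GGGCGG on either strand) for CDKN1A and CDKN2D, and E boxes (CACGTG, which reads the same on both strands) for CDK4.
CDKN1A (chr6:36678464-36678713, plus strand): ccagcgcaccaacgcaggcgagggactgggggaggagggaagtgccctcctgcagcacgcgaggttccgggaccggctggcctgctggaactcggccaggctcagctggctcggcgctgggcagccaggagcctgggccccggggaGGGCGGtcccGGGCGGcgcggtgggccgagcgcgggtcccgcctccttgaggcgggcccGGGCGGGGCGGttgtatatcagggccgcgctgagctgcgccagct
CDKN2D (chr19:10568980-10569229, minus strand): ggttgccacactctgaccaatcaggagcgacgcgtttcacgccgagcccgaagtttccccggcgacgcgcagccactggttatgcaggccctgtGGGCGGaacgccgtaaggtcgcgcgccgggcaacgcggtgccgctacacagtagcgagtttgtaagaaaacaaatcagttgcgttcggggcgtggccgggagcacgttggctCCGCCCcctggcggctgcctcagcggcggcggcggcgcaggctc
CDK4 (chr12:57752311-57752560, minus strand): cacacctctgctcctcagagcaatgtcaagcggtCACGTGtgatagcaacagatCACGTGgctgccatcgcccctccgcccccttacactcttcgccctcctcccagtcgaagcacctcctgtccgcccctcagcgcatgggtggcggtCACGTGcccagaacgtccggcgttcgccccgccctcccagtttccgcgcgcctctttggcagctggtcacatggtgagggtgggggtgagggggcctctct
The CDKN1A stretch holds 4 GC boxes, at 104 to 99, 94 to 89, 45 to 40 and 40 to 35 bases before the start, and the last pair share a base. The CDKN2D stretch holds 2, at 156 to 151 and 44 to 39 bases. The CDK4 stretch holds 3 E boxes, at 216 to 211, 196 to 191 and 101 to 96 bases, besides 3 GC boxes that are not in capitals. Among 35116 promoters of the same length in the table, 42.6% hold a GC box, 13.9% hold 3 or more and 7.63% hold 4 or more. An E box is found in 6.34% and 3 or more in 0.0797%. Among members not past the threshold with MS275, CCND3 holds 5, 2 and 0 GC boxes at its listed starts, CDK6 holds 3 and 0, and CDKN1B holds 1. These are matches of letters, and binding was not measured.

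Values are log2 signals as deposited, and no detection calls were used. All 8 plasma cell markers looked at, among them SDC1, IRF4 and MZB1, lay above the median of every array (means of 8.09 to 12.6). Of 14 markers that fibroblasts, epithelial cells, red cells, myeloid cells or T cells would bring, 4 lay above it, none of them of T or myeloid cells. Their summed level ran from 69.52 to 70.85 with MS275, 66.69 to 68.11 with 1 nM rapamycin, 67.72 to 69.56 with 10 nM, 69.99 to 72.75 with 1 nM and MS275, 69.19 to 69.89 with 10 nM plus MS275, and 66.13 to 72.55 in control. Their part in the results was not tested. Replicate 1 of 1 nM rapamycin with MS275 and replicate 1 of the control stood apart, with an SD over probe sets of 2.14 to 2.15 and medians of 5.35 to 5.36. The other 15 arrays had SDs of 2.27 to 2.37 and medians of 5.09 to 5.20.

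Averaged over its 3 settings (without rapamycin, and with 1 or 10 nM), 3 inhibitors rose, namely CDKN1A by 2.20-fold, CDKN2D by 1.95-fold and CDKN1C by 1.68-fold, and CDK4 fell 1.80-fold. Of these 4 calls only CDKN1A held in each of the 17 fits that leave out 1 array, in which 2 to 5 of the 9 genes passed, and 2 passed with the mean of a gene's probe sets. Shares of all genes in this paragraph belong to the fit of all 17 arrays, not to those fits. Rapamycin, averaged over both doses without and with MS275, lowered CDKN1A 2.91-fold. So the CDKN1A message was the only one of the 9 past the threshold for both drugs, and in opposite directions. The averaged effects were taken from limma's fit with Benjamini-Hochberg adjustment over all 19775 genes, at an adjusted p under 0.05. For MS275, 4 of the 9 genes passed against 8.13% of all genes. The 3 that were higher stand beside 4.54% of all genes that were higher, and the 1 that was lower beside 3.59%. For rapamycin, 1 of 9 passed against 2.35% of all genes, and it was lower, as were 1.94% of all genes. The median change of the 9 genes was 0.10 for MS275, against 0.02 for all genes, and -0.19 for rapamycin, against -0.04 for all genes.

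**Figure D1:**
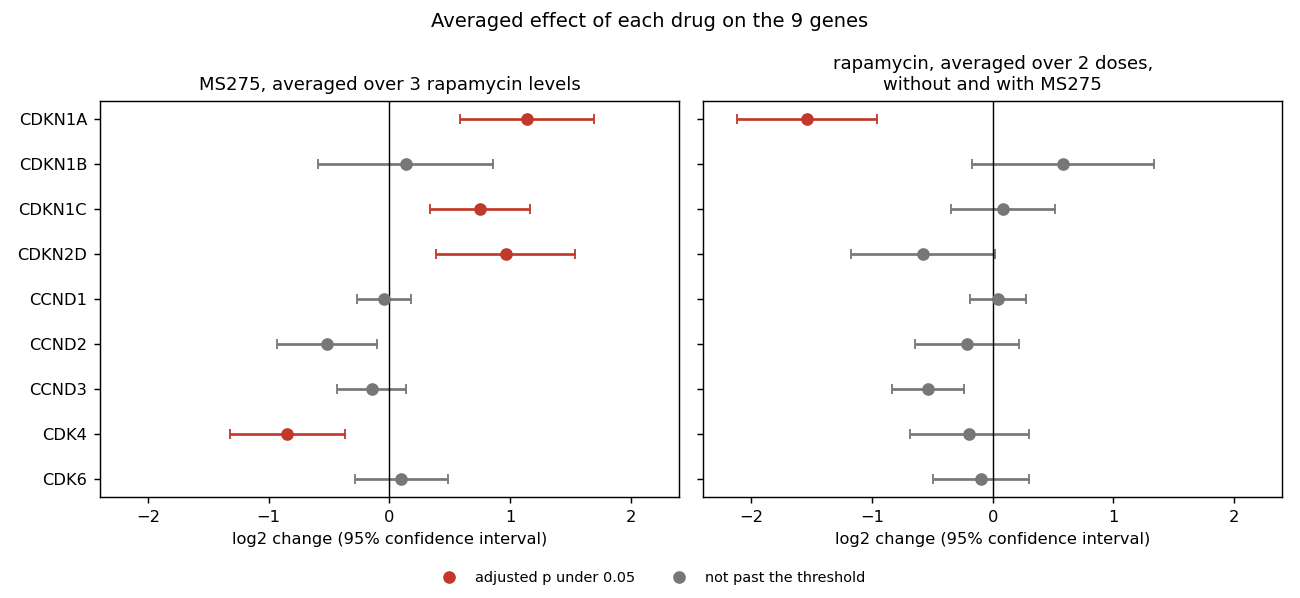
Averaged effect of each drug on the 9 genes, as log2 change on the horizontal axis with its 95% confidence interval (limma, 17 arrays). The left panel is MS275 over 3 rapamycin levels and the right panel is rapamycin over 2 doses, without and with MS275. CDKN1A lies at 1.14 on the left and at -1.54 on the right, and CDKN1C, CDKN2D and CDK4 pass the threshold on the left.

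CDKN1A encodes p21, which inhibits CDK2 complexes and also helps cyclin D and CDK4 to assemble. Its log2 signal was 10.50, 8.98 and 10.10 in cells with MS275, against 9.79, 8.09 and 9.26 in control cells. With rapamycin alone it was 7.26, 7.06 and 7.56 at 1 nM and 6.95, 7.12 and 7.63 at 10 nM. With both drugs it was 9.38, 8.31 and 8.72 at 1 nM rapamycin, and 8.18 and 8.46 at 10 nM. Every array with rapamycin alone lay below every array of the 4 other groups, while the arrays of MS275, of 1 nM rapamycin with MS275 and of control overlapped. In each of these 3 groups replicate 2 was the lowest.

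The averaged MS275 effect on CDKN1A was 1.14 ± 0.26 (log2 change ± SE of the fit, 17 arrays, limma adjusted p = 0.0133, 95% interval 0.58 to 1.70). It was 0.82 ± 0.43 without rapamycin, 1.51 ± 0.43 on top of 1 nM and 1.09 ± 0.48 on top of 10 nM. Within replicate numbers 1, 2 and 3, MS275 arrays stood above control arrays by 0.72, 0.89 and 0.84, and arrays with both drugs stood above those with 1 nM rapamycin by 2.12, 1.25 and 1.16. The averaged rapamycin effect was -1.54 ± 0.27 (limma adjusted p = 0.00665, interval -2.12 to -0.96). Rapamycin alone gave -1.75 ± 0.43 at 1 nM and -1.81 ± 0.43 at 10 nM against control, and on top of MS275 it gave -1.06 ± 0.43 and -1.54 ± 0.48. Cells with both drugs differed from control by -0.24 ± 0.43 at 1 nM and by -0.72 ± 0.48 at 10 nM, neither past the threshold (limma adjusted p = 0.932 and 0.577). The interaction, by which the combined effect exceeds both single effects added up, was 0.69 ± 0.61 at 1 nM (interval -0.62 to 2.001) and 0.27 ± 0.65 at 10 nM (interval -1.12 to 1.66). Both intervals include 0 and changes of over 1 log2 unit, so they do not settle whether the effects of the drugs on CDKN1A add up.

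**Figure D2:**
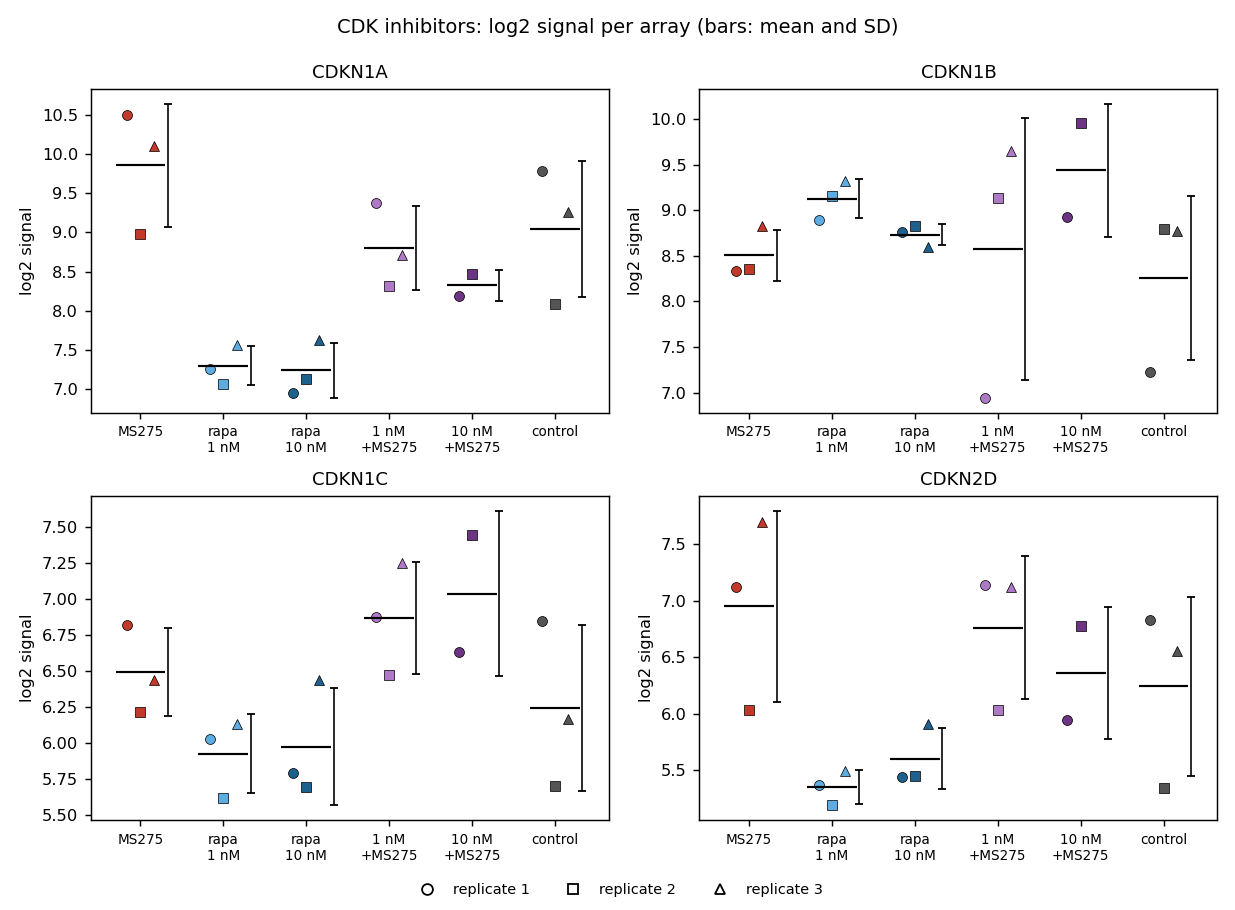
Log2 signal of the 4 measured CDK inhibitors on each array (vertical axis), by treatment group, with each group's mean as a line and its SD as a bar (n = 3, or 2 for 10 nM rapamycin with MS275). For CDKN1A the 6 arrays with rapamycin alone lie between 6.95 and 7.63, below all others, and CDKN1B is low on 2 arrays that hold a narrow range of values.

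CDKN2D encodes p19, an INK4 inhibitor of CDK4 and CDK6. The signal was 7.13, 6.03 and 7.70 with MS275, against 6.83, 5.34 and 6.55 in control. With rapamycin alone it was 5.37, 5.19 and 5.49 at 1 nM and 5.44, 5.44 and 5.91 at 10 nM. With both drugs it was 7.14, 6.03 and 7.12 at 1 nM and 5.95 and 6.78 at 10 nM. Every array with both drugs was above every array with rapamycin alone, but the narrowest gap (5.95 against 5.91) was small, and control arrays spanned most of the range. Over the 8 arrays with MS275 the signal ran from 5.95 to 7.70 with a median of 6.95, and over the 9 without it from 5.19 to 6.83 with a median of 5.44. The averaged MS275 effect was 0.96 ± 0.27 (limma adjusted p = 0.0402). The other CDKN2D probe set, which was dim (3.74 to 4.94), gave -0.10 ± 0.13 for the same effect and did not share the change. The effect was 0.81 to 1.12 when 1 array was left out and passed in 6 of 17 such fits, namely without control replicate 1 or 3, MS275 replicate 2, replicate 2 of 1 nM with MS275, replicate 3 of 10 nM rapamycin or replicate 1 of 10 nM with MS275. The averaged rapamycin effect was -0.58 ± 0.28 and did not pass (adjusted p = 0.486).

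CDKN1C encodes p57, a Cip/Kip inhibitor. Arrays had 6.82, 6.21 and 6.44 with MS275, against 6.85, 5.70 and 6.17 in control. With rapamycin alone it was 6.03, 5.62 and 6.13 at 1 nM and 5.79, 5.69 and 6.44 at 10 nM. With both drugs it was 6.87, 6.47 and 7.25 at 1 nM and 6.63 and 7.44 at 10 nM, above all arrays with rapamycin alone. The averaged MS275 effect was 0.75 ± 0.19 (limma adjusted p = 0.0265). By background it was 0.25 ± 0.32 without rapamycin, 0.94 ± 0.32 on top of 1 nM and 1.06 ± 0.36 on top of 10 nM. The interactions of 0.69 ± 0.46 and 0.81 ± 0.48 did not pass (limma adjusted p = 0.682 and 1), so a difference between backgrounds was not shown. Without rapamycin, the 4 other CDKN1C probe sets had lower means with MS275 than in control. These were 6.21 against 6.41, 6.15 against 6.27, 6.04 against 6.33 and 4.22 against 4.43, with control SDs of 0.60 to 0.83. The 4 other CDKN1C probe sets gave 0.19 to 0.55 for the averaged effect, none past the threshold in a fit of all 41091 singly annotated probe sets, in which 6.66% passed. Leaving out 1 array kept the effect at 0.62 to 0.89, and 6 of the 17 fits missed the threshold (MS275 replicate 1, replicate 2 of 1 nM rapamycin, replicate 3 of 1 nM with MS275, replicates 1 and 2 of 10 nM rapamycin, and replicate 2 of 10 nM with MS275).

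**Figure D3:**
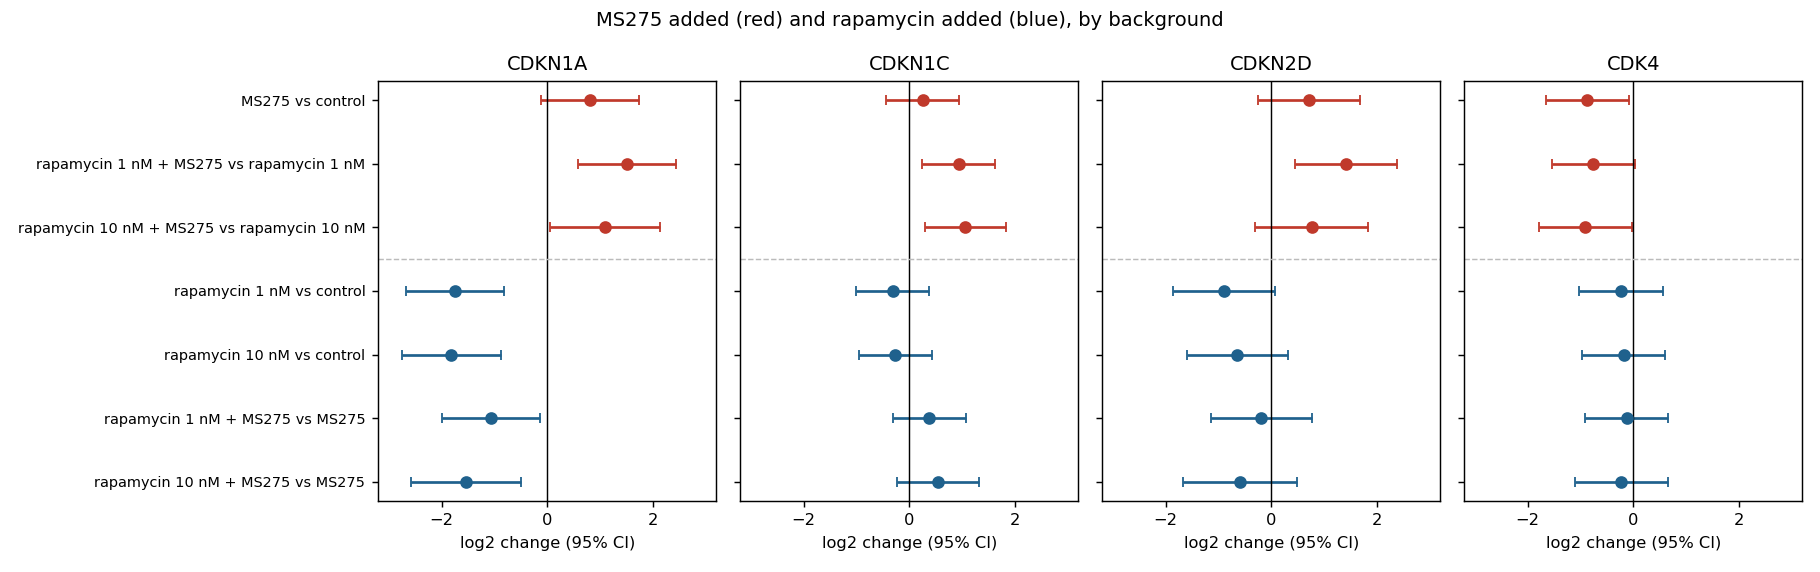
Log2 change (horizontal axis, with 95% confidence interval) of the 4 genes past the threshold in the averaged MS275 effect, for MS275 added on each background in red and rapamycin added on each background in blue. CDK4 lies at -0.87, -0.76 and -0.91 with MS275 added, and CDKN1A lies to the right with MS275 and to the left with rapamycin on each.

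CDKN1B encodes p27, the inhibitor that binds cyclin E and CDK2 in resting cells. The signal was 8.33, 8.35 and 8.83 with MS275, 8.90, 9.15 and 9.32 with 1 nM rapamycin and 8.76, 8.82 and 8.60 with 10 nM. It was 6.94, 9.13 and 9.65 with 1 nM rapamycin plus MS275, 8.92 and 9.95 with 10 nM plus MS275, and 7.22, 8.79 and 8.77 in control. The lowest pair of values belong to the 2 arrays with the narrow range, and the other 15 arrays ran from 8.33 to 9.95. Among those, every array with 1 nM rapamycin was above every array with MS275 alone, with 10 nM rapamycin or of the control. The averaged effects were 0.13 ± 0.34 for MS275 and 0.58 ± 0.35 for rapamycin, neither past the threshold (limma adjusted p = 0.937 and 0.630). Without those arrays they were 0.23 and 0.53, again short of it (adjusted p = 0.426 and 0.145). The interval for rapamycin, -0.17 to 1.34, still holds a rise of more than 2-fold.

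CDK4, the kinase that D cyclins activate, was lower with MS275. Its log2 signal was 10.09, 9.10 and 10.08 with MS275, against 10.59, 10.10 and 11.17 in control. With rapamycin alone it was 10.38, 10.11 and 10.68 at 1 nM and 10.14, 10.12 and 11.05 at 10 nM. With both drugs it was 9.40, 9.36 and 10.13 at 1 nM and 9.13 and 9.93 at 10 nM. The 8 arrays with MS275 reached 10.13 and the 9 without it started at 10.10, so the sets met at their edges with only a slight overlap. The averaged effect was -0.85 ± 0.22 (limma adjusted p = 0.0283), made of -0.87 ± 0.37 without rapamycin, -0.76 ± 0.37 on top of 1 nM and -0.91 ± 0.41 on top of 10 nM. Leaving out 1 array kept it at -0.98 to -0.71, and 8 of the 17 fits missed the threshold (control replicate 3, MS275 replicate 2, replicates 1 and 3 of 1 nM rapamycin, replicates 1 and 2 of 1 nM with MS275, replicate 3 of 10 nM rapamycin, and replicate 1 of 10 nM with MS275). Rapamycin's averaged effect was -0.19 ± 0.23 and did not pass (limma adjusted p = 0.862).

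CDK6, the partner kinase of CDK4, had log2 signals of 11.21, 11.36 and 11.82 with MS275, 11.10, 11.46 and 11.20 with 1 nM rapamycin and 11.03, 11.48 and 11.24 with 10 nM. It had 11.0045, 11.48 and 11.55 with 1 nM rapamycin plus MS275, 11.24 and 11.35 with 10 nM plus MS275, and 10.46, 11.75 and 11.71 in control. All groups overlapped, and the lowest value was again on the narrow control array. The averaged effects were 0.10 ± 0.18 for MS275 (interval -0.28 to 0.48) and -0.10 ± 0.19 for rapamycin (interval -0.50 to 0.30). None of its 6 other probe sets passed for either drug.

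**Figure D4:**
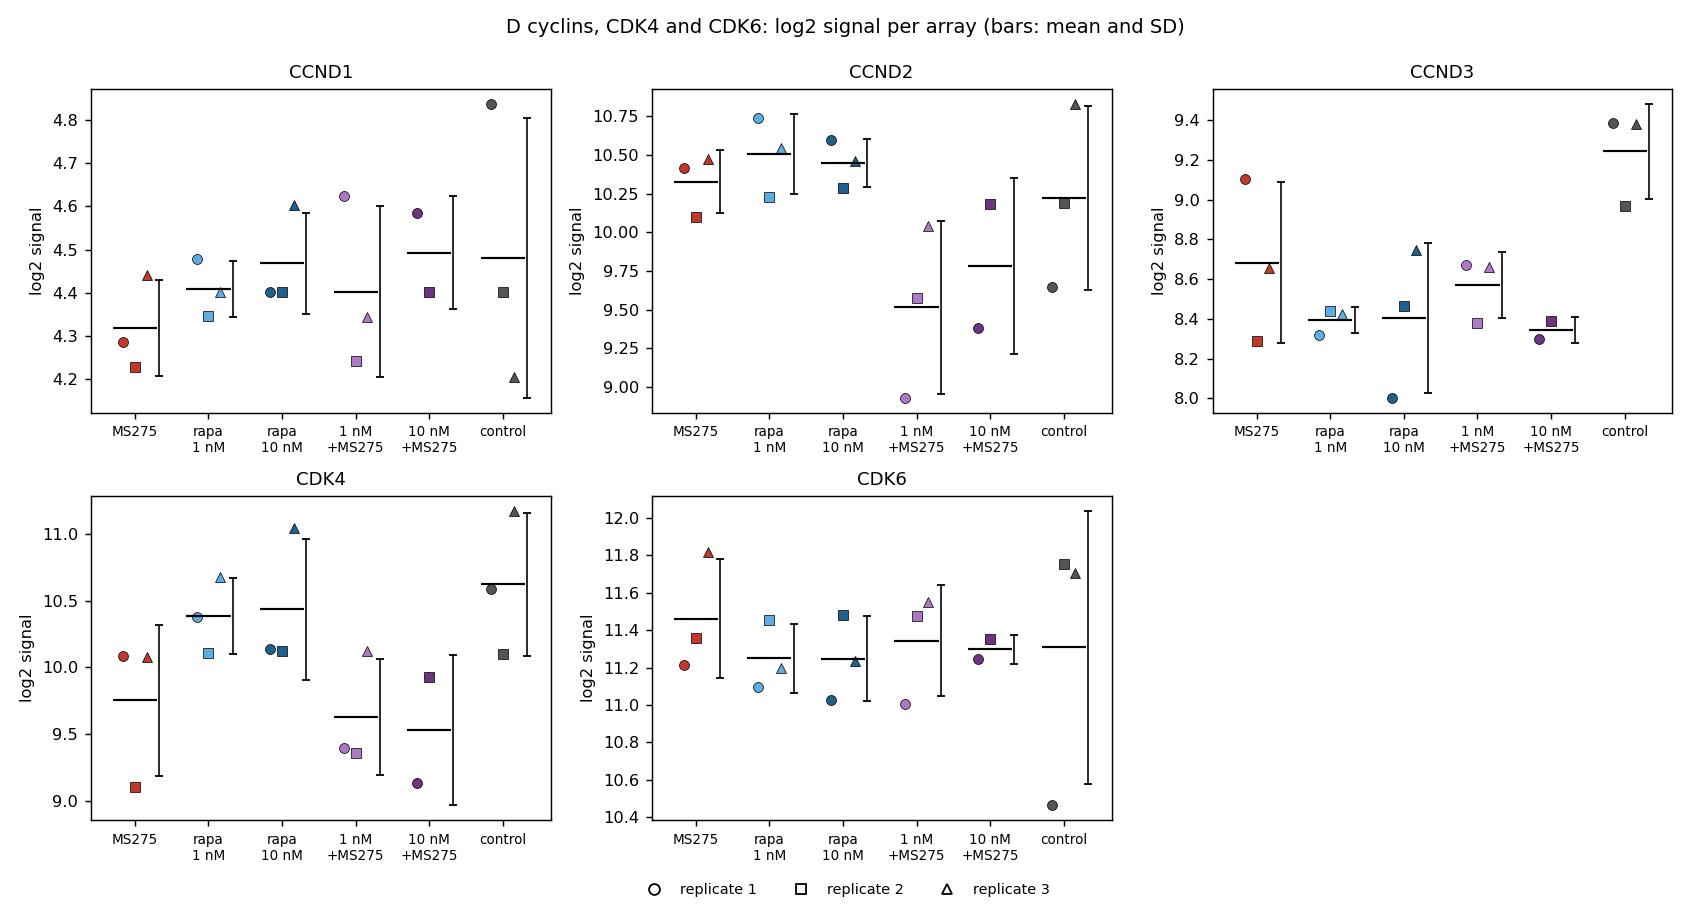
Log2 signal of the D cyclins, CDK4 and CDK6 on each array (vertical axis), by treatment group, with each group's mean as a line and its SD as a bar (n = 3, or 2 for 10 nM rapamycin with MS275). The 11 CCND3 arrays with rapamycin lie at or below 8.75, under the control arrays at 8.97 to 9.39, and CDK4 is lower in the 3 groups with MS275.

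Among the D cyclins, CCND3 stood lower in treated cells, short of the threshold. Its log2 signal was 9.10, 8.29 and 8.66 with MS275, 8.32, 8.44 and 8.42 with 1 nM rapamycin and 8.003, 8.47 and 8.75 with 10 nM. It was 8.67, 8.38 and 8.66 with 1 nM rapamycin plus MS275, 8.30 and 8.39 with 10 nM plus MS275, and 9.39, 8.97 and 9.38 in control. All 11 arrays with rapamycin were below all 3 control arrays, and 2 of the 3 MS275 arrays were too. Against control the differences were -0.56 ± 0.22 for MS275, -0.85 ± 0.22 for 1 nM rapamycin, -0.84 ± 0.22 for 10 nM, -0.67 ± 0.22 for 1 nM with MS275 and -0.90 ± 0.25 for 10 nM with MS275 (limma adjusted p of 0.0709 at the lowest). On top of MS275, rapamycin gave smaller differences of -0.11 ± 0.22 at 1 nM and -0.34 ± 0.25 at 10 nM. The interactions of 0.74 ± 0.32 at 1 nM (limma adjusted p = 0.682) and 0.50 ± 0.34 at 10 nM did not pass. So a difference between backgrounds was not shown. The averaged rapamycin effect was -0.54 ± 0.14 (limma adjusted p = 0.0669). With the replicate number as a block it was -0.52 and passed (adjusted p = 0.0487), in a fit where 4.13% of all genes passed. It also passed without control replicate 2, MS275 replicate 2 or replicate 3 of 10 nM rapamycin. The block rests on numbers that did not deviate together in every pair of groups, both 10 nM groups among them. The averaged MS275 effect was -0.15 ± 0.13 (adjusted p = 0.723), and the other CCND3 probe set, at 4.82 to 6.11, gave 0.17 ± 0.20 for rapamycin.

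The readout of CCND2 differed between its probe sets. The probe set that represents it gave 10.41, 10.10 and 10.47 with MS275, 10.74, 10.23 and 10.55 with 1 nM rapamycin and 10.60, 10.29 and 10.46 with 10 nM. It gave 8.93, 9.57 and 10.04 with 1 nM rapamycin plus MS275, 9.38 and 10.18 with 10 nM plus MS275, and 9.64, 10.19 and 10.83 in control. Both combinations had the lower means, and every array of 1 nM with MS275 was below every array of either drug alone at that dose, but control arrays overlapped with all groups. The overlap with the combinations rests on control replicate 1 (9.64), a narrow array, as is the lowest array with both drugs (8.93). Control replicates 2 and 3 lay above every array with both drugs, by little at the nearest (10.19 against 10.18). The averaged MS275 effect was -0.52 ± 0.19 and did not pass (limma adjusted p = 0.136), except without control replicate 1 (-0.61, adjusted p = 0.0434) and with all arrays weighted by their quality (-0.65, adjusted p = 0.00795). Those weights ran from 0.114 for control replicate 1 to 11.3 for replicate 1 of 1 nM rapamycin. The weighted fit called more genes for this effect than the 8.13% of all genes called with equal weights.

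The CCND2 probe set with the second highest mean spread more widely. Its values were 8.26, 6.94 and 8.99 with MS275, 7.39, 7.003 and 8.62 with 1 nM rapamycin and 7.33, 7.11 and 8.77 with 10 nM. It was 6.34, 5.53 and 7.06 with 1 nM rapamycin plus MS275, 5.03 and 6.52 with 10 nM plus MS275, and 8.16, 8.36 and 8.87 in control. All 5 arrays with both drugs were below all 3 control arrays, by a wide gap. The differences from control were -2.15 ± 0.61 at 1 nM and -2.69 ± 0.69 at 10 nM (limma over all probe sets, adjusted p = 0.102 and 0.0545), and the interactions were -0.96 ± 0.87 and -1.56 ± 0.92 (adjusted p = 0.723 and 1). None of the 4 CCND2 probe sets passed the threshold in any of the 15 comparisons when all arrays were used with equal weight. With array weights the probe set that represents CCND2 also passed for 1 nM with MS275 against 1 nM rapamycin (-0.89, adjusted p = 0.0482). The share of all genes called in that weighted comparison is not given here, so how CCND2 stands among them is not shown.

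**Figure D5:**
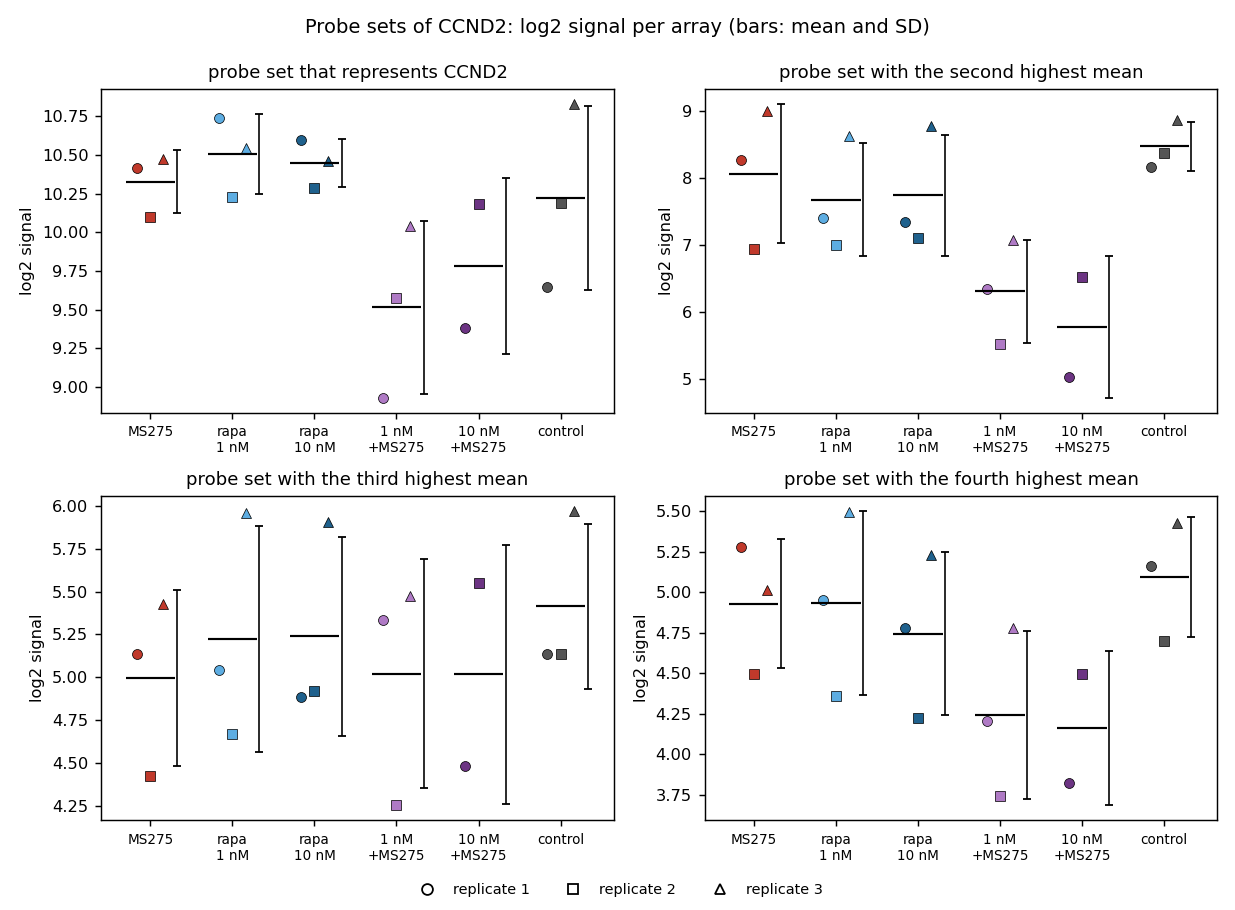
Log2 signal of the 4 probe sets of CCND2 on each array (vertical axis, a scale of its own in each panel), by treatment group, with each group's mean as a line and its SD as a bar (n = 3, or 2 for 10 nM rapamycin with MS275). In the panel of the second probe set the arrays with both drugs lie at 5.03 to 7.06 and the control arrays at 8.16 to 8.87.

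CCND1, the D cyclin most often raised by translocation in myeloma, had 4.20 to 4.84 on all arrays, below the median of every array (5.09 to 5.36). The averaged effects were -0.05 ± 0.10 for MS275 and 0.04 ± 0.11 for rapamycin, and the gene's other probe set was dimmer still, at 2.29 to 3.52.

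No single comparison gave a call for the 9 genes. Of the 117 values in 13 comparisons, 0 passed in limma's fit after adjustment and 24 had an unadjusted p under 0.05. The share of all genes past the threshold was small there too. Against control it was 1.49% for MS275, 0.101% for 1 nM rapamycin, 0.435% for 10 nM, 2.7% for 1 nM with MS275 and 3.3% for 10 nM with MS275. Against MS275 it was 0.106% for 1 nM with MS275 and 0.253% for 10 nM with MS275. Against rapamycin alone it was 1.23% for 1 nM with MS275 and 0.435% for 10 nM with MS275. The dose comparisons of rapamycin, without and with MS275, and both interactions called 0% of genes. At an unadjusted p under 0.05 they held 24, 152, 916 and 194 genes, beside 0, 0, 2 and 0 of the 9. The median change of all genes was -0.12 for 1 nM rapamycin against control, 0.12 for 1 nM with MS275 against 1 nM rapamycin and 0.16 for the interaction at 1 nM, and within 0.10 of 0 in the others. Between doses, CDKN1A differed by -0.06 ± 0.43 without MS275 (interval -0.99 to 0.87) and by -0.48 ± 0.48 with it (interval -1.52 to 0.56).

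Replicate numbers were shared across groups, and with the number as a block some of these values crossed the threshold. CDKN1A passed for 1 nM rapamycin against control (adjusted p = 0.0466, where 0.566% of all genes passed), for 10 nM against control (adjusted p = 0.0248, 1.15% of all genes) and for 1 nM with MS275 against 1 nM rapamycin (adjusted p = 0.0357, 2.83% of all genes). CDK4 passed for 1 nM with MS275 against control (adjusted p = 0.0395, 5.22% of all genes). The block left the changes themselves at -1.75, -1.81, 1.51 and -0.995. The numbers of the 10 nM rapamycin and control groups did not deviate together, so the blocked value of that comparison rests on numbers that do not pair the arrays.

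The rest of the G1 pathway was described by 9 lists, of which 58 of 63 genes were measured. For the averaged MS275 effect 5 rose, 4 fell and 49 did not pass, where 4.54% of all genes were higher and 3.59% lower. For rapamycin 1 rose, 5 fell and 52 did not, where 2.35% of all genes passed and 1.94% were lower. Genes that act after CDK4 were among them. E2F2, a transcription factor of S phase genes, had changes of -1.30 ± 0.19 with MS275 and -1.55 ± 0.20 with rapamycin (limma adjusted p = 0.000625 and 0.000691). CDC25A, the phosphatase that removes the block on CDK2, had -1.48 ± 0.12 and -1.23 ± 0.13 (adjusted p = 5.62e-06 and 0.000249). In cells with 10 nM rapamycin and MS275, E2F2 was 9.36-fold and CDC25A 7.40-fold below control. CCNE1, the cyclin of CDK2, fell by 0.79 with MS275, and CDK2 itself fell by 0.63 with rapamycin. Of the 10 RB and E2F genes, TFDP2, a dimer partner of E2F factors, rose by 0.66 with rapamycin, and the 8 apart from E2F2 and TFDP2 did not pass for either drug.

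Transcription factors known to act on CDK inhibitor genes rose with MS275 in 3 of 10 cases and fell in 0, beside 4.54% of all genes higher and 3.59% lower. FOXO1 and FOXO3, which switch on CDKN1B and other arrest genes when AKT is low, had averaged changes of 1.17 ± 0.15 and 0.80 ± 0.23 (limma adjusted p = 0.000216 and 0.0433). KLF6, a zinc finger factor that can act on the CDKN1A promoter, had 0.76 ± 0.13 (adjusted p = 0.00229). Among 5 measured factors on D cyclin genes, JUN had 1.89 ± 0.40 (adjusted p = 0.00825), and the 4 others did not pass. Of 8 other p53 target genes, ZMAT3 rose by 1.03 with MS275 and SESN2 fell by 1.32 with rapamycin. In the list for turnover of CDK inhibitors, DTL, which directs CDKN1A to degradation, fell by 1.01 with MS275, and CKS1B, a cofactor of SKP2 in the degradation of CDKN1B, fell by 0.99 with rapamycin, while the 7 others did not pass for either drug. None of the CDK-activating kinase subunits (3 genes), the genes of D cyclin turnover (5 genes) or the chaperones of CDK4 and CDK6 (3 genes) passed for either drug.

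The genes whose signal was most like each of the 9 over the 17 arrays were taken from 11327 genes with an SD of at least 0.3. The points share arrays and treatments, so Pearson's r is a description only. CDKN1A was most like IDH2 (r = 0.96) and EEIG1 (0.94). CDKN2D was most like LITATS1 (0.97) and CYP26A1 (0.94), and CDKN1C like WDR64 (0.93) and HS3ST4 (0.92). CDK4 was most like RPRD1B (0.98) and MPI (0.98), and CCND3 like PPP5C (0.94) and GARS1 (0.93). For CDKN1B (SLU7, 0.98, and PHF3, 0.95), CCND2 (NDUFS1, 0.93, and SUMO3, 0.91), CCND1 (MTSS1, 0.89, and NTN1, 0.88) and CDK6 (FIGNL1, 0.92, and C10orf12, 0.88) the r was lower without the 2 narrow arrays, at 0.95, 0.85, 0.87, 0.84, 0.76, 0.76, 0.86 and 0.72 in the same order. For the other genes r without them ran from 0.91 (CCND3 with GARS1) to 0.99 (CDK4 with MPI), slightly lower in some pairs and higher in others.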

How the data were processed

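RNA of L363 cells was labelled as amplified antisense RNA and measured on 17 arrays in 6 groups. The authors deposited log2 signals per probe set, made with affy and RMA per the submitters' processing notes (no version or setting is named there). Of 54613 probe sets, 41091 have 1 gene symbol in the platform annotation, 1801 several and 11721 none, and 41037 matched RefSeq by Entrez ID. The values were used as deposited. Group means were fitted to 19775 genes with limma 3.58.1 in R 4.3.3 (lmFit and eBayes, 11 residual degrees of freedom, Benjamini-Hochberg adjustment, threshold 0.05) after the script was tested on simulated data. No array was left out of the reported fit. An averaged effect is the mean of the differences between matched groups. The distance from a gene's change to the end of its 95% interval had a median of 0.54 for groups of 3 and 0.60 with the group of 2.

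The members, lists, comparisons and naming rule were chosen with earlier results of these data known. From each list up to 4 genes past the threshold were named. Replicate numbers come from the titles. Of 10 pairs of groups with 3 shared numbers, 7 had every same-numbered pair of arrays deviating together (correlations of 0.286 to 0.854), and the main fit has no block. Pairs that include 10 nM rapamycin with MS275 share only 2 numbers and were not counted as paired (correlations of -0.743 to 0.386). The alternatives were a replicate block, omission of each array or of the 2 narrow ones, fits on the compared groups only, array weights, 2 other normalizations, a filter on dim genes (mean log2 under 5), other probe set rules and a trended, robust eBayes.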

Additional observations from a re-analysis of the deposited data

How the results depend on the processing

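For the 9 genes, 135 changes gave 3612 values under the alternatives. Of these, 3556 kept their direction where one was called and their side of the threshold, 29 no longer passed, 27 newly passed and 0 reversed. CDKN1A passed in both averaged effects under all 17 omissions of 1 array and the 9 other settings that apply. The count of genes past the threshold was 4 for the averaged MS275 effect, 2 to 5 without 1 array and 2 with the mean of a gene's probe sets. CDKN1C passed in 11 of the 17 omissions and CDKN2D in 6, with adjusted p up to 0.107 and 0.139, both without replicate 2 of 10 nM rapamycin with MS275. CDK4 passed in 9, with an adjusted p of up to 0.111 without replicate 1 of that group, and missed at 0.0578 without both narrow arrays. CDKN2D missed under quantile normalization (0.0541), and CDKN1C and CDKN2D with the mean of a gene's probe sets (0.0678 and 0.169). CCND2 passed for MS275 without control replicate 1 (-0.61, adjusted p = 0.0434) and with array weights (-0.65, adjusted p = 0.00795). The count for the averaged rapamycin effect was 1, with 1 to 2 without 1 array, 2 with the replicate block and 2 with array weights, the second gene being CCND3 each time. In the single comparisons the count was 0. The replicate block made it 1 for 1 nM rapamycin, 10 nM rapamycin and 1 nM with MS275 against control and for 1 nM with MS275 against 1 nM rapamycin. Array weights, which ran from 0.114 (control replicate 1) to 11.3 (replicate 1 of 1 nM rapamycin), made it 1 for MS275, 4 for 1 nM rapamycin, 2 for 10 nM rapamycin and 2 for 10 nM with MS275 against control, and 4 for 1 nM with MS275 against 1 nM rapamycin. These weighted counts stand without the share of all genes called in the same fits. Weighting also raised the calls over all genes in both averaged effects. Whether the weighted counts set the 9 genes apart in the single comparisons was not tested. Without 1 array the count was 0 to 1 for 1 nM and 10 nM rapamycin (CDKN1A, without control replicate 2) and for 10 nM with MS275 (CCND3, without MS275 replicate 1). Over all genes, 1607 passed for averaged MS275, against 2462 with the replicate block and 3156 with array weights, and 464 for averaged rapamycin, against 817 and 1562. The cause was not tested. Signal over background is not known, and 2 or 3 arrays a group limit the precision.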
